A study of Mus musculus with 12 samples.

Results

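The genes of MHC class II antigen presentation were followed in RNA-seq libraries of PECs, peritoneal exudate cells that thioglycollate injection draws into the abdomen and that are largely macrophages. The members are the rows named *H2-Aa*, *H2-Ab1*, *H2-Eb1*, *H2-DMa*, *H2-DMb1*, *Cd74* and *Ciita*, which were chosen by name, with earlier results of these data known. All 7 were among the 12850 genes listed, and all 7 passed the filter on low values, which kept the 11885 genes that reached 1 CPM (reads scaled to the size of the library) in 2 or more libraries. PECs came from C57BL/6 mice, either WT or *Zc3h12a* S513A/S513A (S513A), a knock-in made by genome editing that replaces a serine of Regnase-1, an RNase that degrades mRNAs of inflammatory genes. The cells were left without LPS (0 hr) or received LPS, a bacterial cell wall component sensed by Toll-like receptor 4, at 100 ng/ml for 4 or 8 hr. Each of the 6 groups had 2 libraries, 12 in all. The labels do not say whether the libraries of a group came from separate mice, so p values measure the spread between these libraries, which may be technical, and the age of the mice is not given in the sources used here. The S513A substitution is carried by every cell of the knock-in mice, and LPS was added to the collected cells in culture.

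MHC class II molecules are pairs of an alpha and a beta chain that show peptides from engulfed proteins to CD4+ T cells. In C57BL/6 mice the I-A pair is made from *H2-Aa* and *H2-Ab1*, whereas the beta chain of I-E, *H2-Eb1*, lacks a working alpha partner in this strain. Newly made pairs are held by the invariant chain, *Cd74*, and its last fragment is exchanged for other peptides by H2-M, a dimer of the *H2-DMa* and *H2-DMb1* products. The transactivator *Ciita* is the master regulator of these genes: it binds no DNA itself but docks on RFX, CREB and NF-Y proteins that sit on the X and Y boxes of class II promoters. Macrophages carry little class II at rest and gain it in response to interferon gamma.

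In GRCm38, 5 members lie within the MHC on chromosome 17. *H2-DMa* (Entrez gene 14998) spans chr17:34119541-34139101, *H2-DMb1* (14999) spans chr17:34153072-34160230, *H2-Ab1* (14961) spans chr17:34257689-34269419, *H2-Aa* (14960) spans chr17:34282744-34287823 on the minus strand and *H2-Eb1* (14969) spans chr17:34305867-34316674. *Ciita* (12265) spans chr16:10480059-10528418, and *Cd74* (16149) lies outside the MHC. RefSeq windows of 300 bases at gene starts, 250 before and 50 after the start (GRCm38.p6), were found for 4 of the 7 members. The stretch that holds an X box core and the Y box core is shown for the 3 members whose window had both. X and Y boxes are in general the sites of the proteins that *Ciita* docks on, and binding was not measured here. Each is printed 5′ to 3′ on the gene's strand, with the matched letters in capitals.

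*H2-DMb1*, chr17:34153091-34153142, plus strand: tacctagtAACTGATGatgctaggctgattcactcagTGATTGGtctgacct
*H2-Aa*, chr17:34287859-34287905, minus strand: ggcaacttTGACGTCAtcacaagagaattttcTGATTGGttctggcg
*H2-Eb1*, chr17:34305770-34305820, plus strand: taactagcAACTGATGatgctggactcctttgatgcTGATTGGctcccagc

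The Y box core searched was TGATTGG, present on either strand in 2568 of all 32851 windows of this length (7.82%). The X1 core AACNGATG was present in 762 windows (2.32%) and the X2 box in its palindromic CRE form, TGACGTCA, in 588 (1.79%). None of these motifs overlapped another in the stretches shown. In *H2-DMb1* and *H2-Eb1* the X1 core matched, with 21 and 20 bases between it and the Y core, whereas in *H2-Aa* the X2 form matched, 16 bases from the Y core. The Y core lay 56, 43 and 54 bases before the RefSeq start of the window in *H2-DMb1*, *H2-Aa* and *H2-Eb1*. For *H2-Aa* and *H2-Eb1* that start is also the start of the gene span given above, whereas for *H2-DMb1* it lies inside the span, so the printed stretch falls within the annotated gene. Neither of the 2 windows for *H2-DMa* held any of these letters. Both belong to long transcripts, and the shorter ones start downstream, outside these windows. The motif letters were chosen after the sequences were seen, and a match is a description and not a measured binding site.

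Library depth on the listed genes was 9525979 to 12439960 reads, with a median of 11137241. A floor of 3 reads was a log2 CPM of -2.04 in the library of largest normalized size and -1.30 in that of the smallest, and the lowest member value, 51 reads on *Ciita*, was well above it. Floors cover counting error only. The 2 WT libraries at 4 hr stood farthest apart of any pair, with an SD of the log2 difference between them of 0.40 over 8353 well measured genes, against 0.16 to 0.34 in the other groups. *Zc3h12a* itself was higher with LPS at both times and did not pass the test between genotypes in the mean of the time points (log2 fold change -0.04, limma adjusted p = 0.918).

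The members differed widely in abundance. *Cd74* was the highest when CPM was divided by the length of the gene's exons, with a mean of 181 CPM per kb (range 123 to 246, n = 12). Below it came *H2-Ab1* at 62.4 CPM per kb (35.9 to 91.0), *H2-Eb1* at 42.9 (29.6 to 64.4), *H2-Aa* at 31.4 (20.3 to 48.4), *H2-DMb1* at 22.2 (17.0 to 25.7) and *H2-DMa* at 7.43 (4.73 to 11.0). *Ciita*, the regulator, was the lowest at 0.913 CPM per kb (0.475 to 1.64). Within a library the per-kb order was the same, since each member was above the next in 12 of 12 libraries. This order depends on the exon lengths. In CPM without the division *H2-Aa* was above *H2-Eb1* (mean log2 CPM 6.85 and 6.34), with exon lengths of 3798 and 1944 bases. Over all libraries the ranges were apart for *Cd74* and *H2-Ab1*, for *H2-DMb1* and *H2-DMa*, and for *H2-DMa* and *Ciita*, but those of *H2-Ab1*, *H2-Eb1*, *H2-Aa* and *H2-DMb1* overlapped with their neighbours. The per-kb level of *H2-DMa* depends on the gene model, since its 3448 bases of exon include those of the long transcripts, while *H2-DMb1* has 1681.

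**Figure D1:**
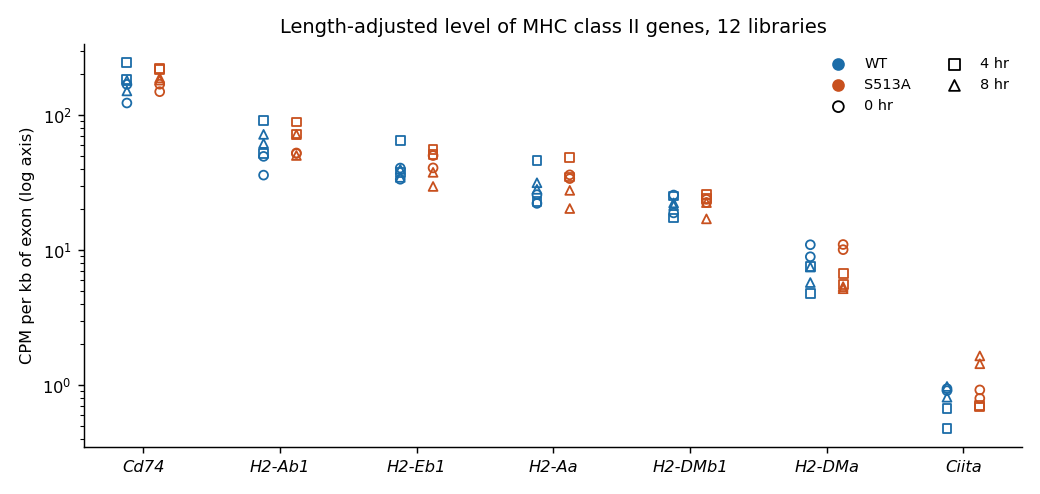
Level of each member in CPM per kb of exon (log axis) in the 12 libraries, WT in blue and S513A in orange, with circles for 0 hr, squares for 4 hr and triangles for 8 hr. The mean levels run from 181 for *Cd74* to 0.913 for *Ciita*, and the order of the genes is the same in all 12 libraries.

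Reads of some members can be shared with other genes. Of the 50-base words in the transcripts of *H2-DMb1*, 22.7% also occur in *H2-DMb2*, which had 2 to 22 reads per library. In *H2-DMa* 8.43% of words are shared with *Brd2* on the opposite strand, in *Ciita* 1.46% with *Dexi*, and in *H2-Aa* 0.514% with other genes, while *H2-Ab1*, *H2-Eb1* and *Cd74* share none. The reads were mapped without strand, so reads from *H2-DMa* and *Brd2* where they overlap, and from *H2-Eb1* and the antisense gene *Gm20513*, cannot be told apart by strand.

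The first question was how the members responded to LPS, taking the mean of both genotypes, 4 libraries against 4. At 4 hr, 4 of 7 members passed the test (limma, adjusted p under 0.05), with 2 higher (*H2-Ab1* and *Cd74*) and 2 lower (*H2-DMa* and *Ciita*). At this time 55.8% of all genes tested passed, 29.1% higher and 26.7% lower, so the members' share is close to that of the genes at large. At 8 hr against 0 hr, 2 of 7 passed, *Ciita* higher and *H2-DMa* lower, against 46.1% of all genes (24.5% higher and 21.6% lower). Between 4 and 8 hr, *Ciita* rose and *H2-Eb1* fell, 2 of 7 against 25.6% of all genes (12.8% higher and 12.8% lower). The median log2 fold change of the members was 0.33 at 4 hr and -0.12 at 8 hr against 0 hr, beside 0.02 and -0.00070 for all genes tested. The contrasts with 0 hr share the 0 hr libraries, and in bulk RNA a change in the share of class II-bearing cells and a change of mRNA per cell cannot be told apart.

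**Figure D2:**
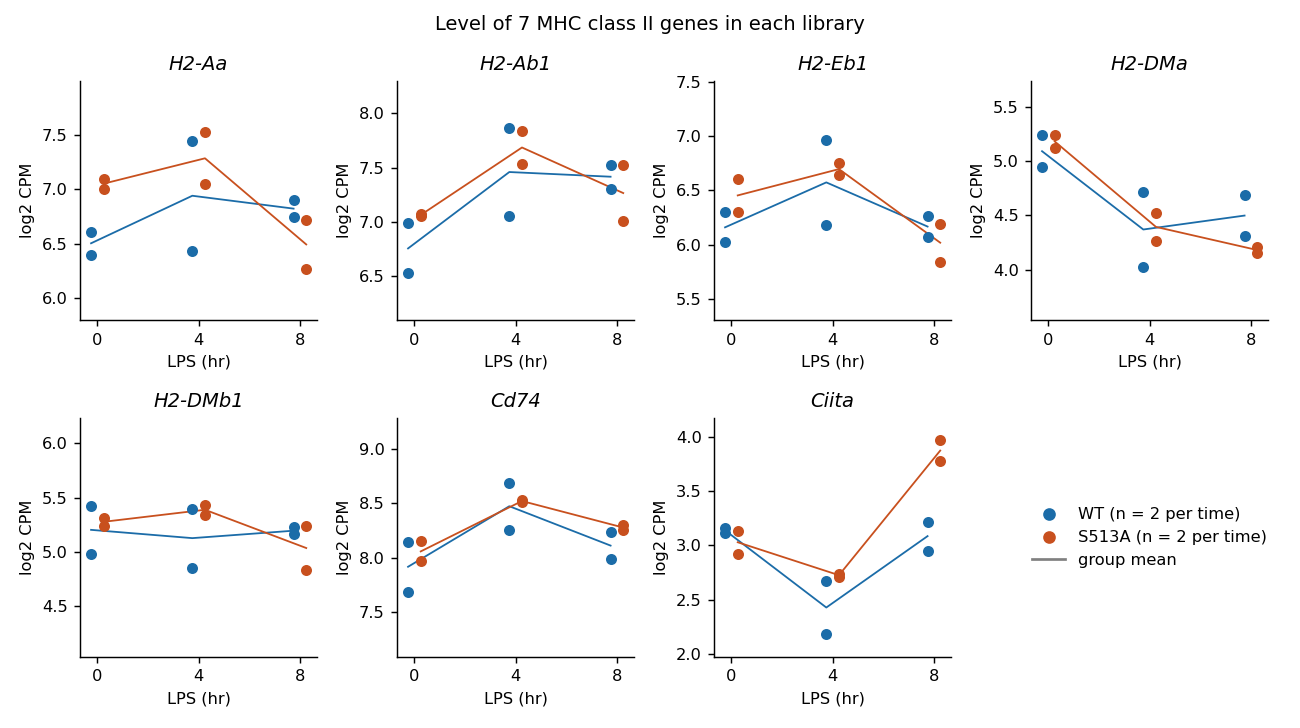
The log2 CPM of each member (vertical axis, same span in each panel) against hours of LPS, with 1 point per library and lines through the group means of 2 libraries. *H2-DMa* is lower in all 8 LPS libraries than in the 4 libraries at 0 hr, *Ciita* dips at 4 hr and is highest in the S513A libraries at 8 hr, and the classical chains overlap between times.

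*H2-Ab1*, the beta chain of I-A, had a log2 CPM of 6.99 and 6.53 without LPS, 7.87 and 7.05 after 4 hr and 7.53 and 7.30 after 8 hr in the WT libraries. In the S513A libraries it was at 7.06 and 7.07 without LPS, 7.54 and 7.83 after 4 hr and 7.01 and 7.52 after 8 hr. Within each genotype both 4 hr libraries lay above both 0 hr libraries, as for 34.8% of all genes in WT and 36.9% in S513A. Over the genotypes the lowest library at 4 hr (7.05) and the highest at 0 hr (7.07) overlapped. *H2-Ab1* rose by 0.66 ± 0.18 (SE) on the log2 scale at 4 hr, 1.58-fold (limma adjusted p = 0.0103). At 8 hr its difference from 0 hr was 0.43 ± 0.18 (SE), which did not pass (limma adjusted p = 0.0801).

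The alpha chain of the same pair, *H2-Aa*, was at 6.61 and 6.39 without LPS, 7.45 and 6.43 after 4 hr and 6.90 and 6.74 after 8 hr in WT. In S513A the values were 7.01 and 7.10 without LPS, 7.05 and 7.52 after 4 hr and 6.27 and 6.72 after 8 hr. The 2 WT libraries at 4 hr differed by 1.01, the widest gap between libraries of a group for any member. Its log2 fold change was 0.34 ± 0.20 (SE) at 4 hr (limma adjusted p = 0.179) and -0.12 ± 0.20 (SE) at 8 hr (limma adjusted p = 0.659). Without the second WT library at 4 hr, the 4 hr difference of *H2-Aa* was 0.59 and passed (limma adjusted p = 0.00509).

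*H2-Eb1*, the I-E beta chain, was at 6.30 and 6.02 in WT without LPS, 6.97 and 6.18 after 4 hr and 6.27 and 6.07 after 8 hr. The S513A libraries had 6.61 and 6.30 without LPS, 6.64 and 6.75 after 4 hr and 5.85 and 6.19 after 8 hr. At 4 hr the log2 fold change was 0.33 ± 0.16 (SE) and did not pass (limma adjusted p = 0.111), but without the second WT library at 4 hr it was 0.53 and passed (limma adjusted p = 0.00414). From 4 to 8 hr *H2-Eb1* fell by 0.54 on the log2 scale (SE 0.16, limma adjusted p = 0.0329). This call was lost without any 1 of 6 of the 8 libraries compared: the first WT library at 4 hr (-0.34), either WT library at 8 hr (-0.59 and -0.49), either S513A library at 4 hr (-0.57 and -0.51) or the first S513A library at 8 hr (-0.46). It passed without the second WT library at 4 hr (-0.74) or the second S513A library at 8 hr (-0.63).

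*Cd74*, the invariant chain that fills the groove of new class II molecules, was at 8.15 and 7.69 without LPS, 8.69 and 8.26 after 4 hr and 8.24 and 7.98 after 8 hr in WT. In S513A it was at 7.97 and 8.15, 8.51 and 8.53, and 8.25 and 8.30 at the same times. Every library at 4 hr was above every library at 0 hr, with 8.15 the highest at 0 hr and 8.26 the lowest at 4 hr. The same held for 25.7% of all genes tested. *Cd74* rose 1.42-fold at 4 hr, by 0.51 ± 0.12 (SE) on the log2 scale (limma adjusted p = 0.00499). At 8 hr the difference from 0 hr was 0.21 ± 0.12 (SE) and the groups overlapped (limma adjusted p = 0.206). With quantile normalization of the libraries the 4 hr calls of *H2-Ab1* and *Cd74* were both lost, with differences of 0.32 and 0.11 (limma adjusted p = 0.159 and 0.476).

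*H2-DMa*, the alpha chain of the peptide exchanger H2-M, was lower in every LPS library. It was at 5.24 and 4.94 in WT and 5.24 and 5.12 in S513A at 0 hr. With LPS it was at 4.71 and 4.03 in WT and 4.27 and 4.52 in S513A at 4 hr, and at 4.69 and 4.31 in WT and 4.15 and 4.21 in S513A at 8 hr. All 8 LPS libraries were below all 4 libraries at 0 hr. Of all genes tested, 23.4% had every 4 hr library below every 0 hr library, and 20.7% every 8 hr library. In log2, *H2-DMa* fell by 0.75 at 4 hr (SE 0.15, 0.59-fold, limma adjusted p = 0.00163) and by 0.80 at 8 hr (SE 0.15, 0.58-fold, limma adjusted p = 0.00147). Between 4 and 8 hr its difference was -0.04 ± 0.15 (SE). *Brd2*, which overlaps *H2-DMa* on the other strand, rose by 0.61 at 4 hr and 0.57 at 8 hr on the log2 scale, with 1969 to 3690 reads per library against 170 to 541 on *H2-DMa*; the part of shared reads in the *H2-DMa* values was not tested.

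The partner of *H2-DMa* in the dimer, *H2-DMb1*, had the narrowest range of the members, from 4.84 to 5.44 over the 12 libraries. It was at 5.42 and 4.98 in WT and 5.24 and 5.32 in S513A at 0 hr, at 5.40 and 4.86 in WT and 5.34 and 5.44 in S513A at 4 hr, and at 5.16 and 5.23 in WT and 4.84 and 5.24 in S513A at 8 hr. The times overlapped. Its log2 fold changes were 0.02 after 4 hr (limma adjusted p = 0.929) and -0.12 after 8 hr (0.511), with 95% confidence intervals from -0.30 to 0.33 and from -0.44 to 0.19.

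The ratio of *H2-DMa* to *H2-DMb1* was therefore compared within libraries, where it does not depend on the scaling of a library. Its log2 was -0.11 ± 0.10 (SD, n = 4) at 0 hr, -0.88 ± 0.16 at 4 hr and -0.78 ± 0.25 at 8 hr. The values at 0 hr (-0.20 to 0.0033) were all above those at 4 hr (-1.08 to -0.69) and at 8 hr (-1.03 to -0.48). In an exact two-sided permutation test of 4 against 4 libraries both differences gave p = 0.0286, the smallest this design allows, and 0.0429 after Benjamini-Hochberg adjustment over the 6 ratio tests made. For the I-A chains, the log2 ratio of *H2-Ab1* to *H2-Aa* was 0.13 ± 0.17 (SD, n = 4) at 0 hr, 0.46 ± 0.13 at 4 hr (exact permutation p = 0.0571, adjusted 0.0686) and 0.68 ± 0.11 at 8 hr (exact permutation p = 0.0286, adjusted 0.0429). The log2 ratio of *Cd74* to its activator *Ciita* was 4.90 ± 0.22 (SD, n = 4) at 0 hr, 5.92 ± 0.40 at 4 hr (exact permutation p = 0.0286, adjusted 0.0429) and 4.72 ± 0.43 at 8 hr (exact permutation p = 0.457, adjusted 0.457). These pairs were chosen after the values of the genes were seen.

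*Ciita*, the transactivator, fell at 4 hr, when *H2-Ab1* and *Cd74* rose. Its log2 CPM was 3.16 and 3.11 in WT and 2.92 and 3.13 in S513A at 0 hr. At 4 hr it was 2.18 and 2.68 in WT and 2.71 and 2.74 in S513A, with all 4 libraries below those at 0 hr. Of all genes tested, 23.4% were separated in this direction. At 8 hr the WT libraries were at 2.95 and 3.22, overlapping the 0 hr values, whereas the S513A libraries were at 3.97 and 3.78, the highest values of *Ciita* in the series. In reads, these values rest on 51 to 181 per library.

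In the mean of the genotypes *Ciita* fell by 0.51 in log2 at 4 hr (SE 0.13, 0.70-fold, limma adjusted p = 0.00757). From 4 to 8 hr it rose by 0.90 ± 0.13 (SE), 1.87-fold (limma adjusted p = 0.000753). Every 8 hr library was above every 4 hr library, as for 11.9% of all genes tested. Against 0 hr the 8 hr libraries overlapped, and the rise of 0.40 ± 0.13 (SE) passed narrowly (limma adjusted p = 0.0319). That call was lost when 1 library was left out in 5 of the 8 cases: the first or the second WT library at 0 hr (0.41 and 0.38), the second WT library at 8 hr (0.33), the first S513A library at 0 hr (0.34) or the first S513A library at 8 hr (0.35). *Dexi*, which overlaps *Ciita* on the other strand, did not pass at either time (log2 fold change -0.29 at 4 hr and -0.20 at 8 hr, 45 to 98 reads per library).

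**Figure D3:**
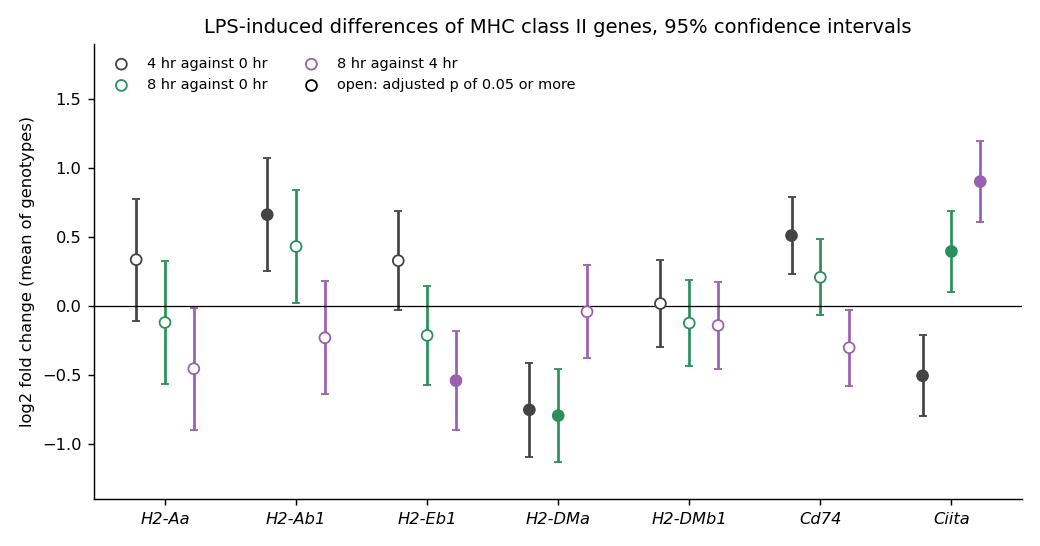
Differences between times in log2 fold change with 95% confidence intervals (limma, mean of the genotypes, 4 libraries against 4) for each member. Filled points had an adjusted p under 0.05: *H2-Ab1* and *Cd74* are above 0 and *H2-DMa* and *Ciita* below 0 at 4 hr, and the 8 hr against 4 hr point of *Ciita* (0.90) is the highest.

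The same responses were then taken within each genotype, 2 libraries against 2. In WT at 4 hr 3 of 7 members passed, against 41.3% of all genes: *H2-DMa* fell by 0.72, *Ciita* fell by 0.71 and *Cd74* rose by 0.56 (log2) (limma adjusted p = 0.0213, 0.0116 and 0.0271). In S513A at 4 hr 1 of 7 passed, against 43.2%, namely *H2-DMa*, which fell by 0.79 (limma adjusted p = 0.0134). *Ciita* was at -0.30 ± 0.19 (SE) in S513A at 4 hr (limma adjusted p = 0.226). *Cd74* was at 0.46 in S513A at 4 hr, and *H2-Ab1* at 0.62 in S513A and 0.70 in WT. These 3 values missed the threshold (limma adjusted p = 0.0552, 0.0782 and 0.0520). At 8 hr 0 of 7 members passed in WT in the limma fit, against 34.3% of all genes. At an unadjusted p under 0.05 there were 2, beside 5313 of the 11885 genes tested. They were *H2-DMa* at -0.59 and *H2-Ab1* at 0.66 (limma adjusted p = 0.0561 and 0.0743). In S513A at 8 hr 2 of 7 passed, against 39.9%: *H2-DMa* fell by 1.00 and *Ciita* rose by 0.84 on the log2 scale (limma adjusted p = 0.00423 and 0.00506).

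The calls within WT at 4 hr rested on single libraries. *H2-DMa* was at -0.57 without the first WT library at 0 hr and at -0.38 without the second at 4 hr. *Ciita* was at -0.69 without the first WT library at 0 hr and at -0.46 without the first at 4 hr, and *Cd74* at 0.34 without the first at 4 hr and 0.33 without the second at 0 hr. None of these 6 values passed (limma adjusted p = 0.0645 to 0.232). The S513A call of *H2-DMa* at 4 hr was lost without the first S513A library at 0 hr (-0.72) or at 4 hr (-0.66).

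The genotypes were compared to ask whether the S513A form of Regnase-1 alters the level of mRNAs. No member passed the test between S513A and WT in the mean of the time points (limma, 0 of 7 against 0.0673% of all genes), at 0 hr (0 of 7 against 0.0337%), at 4 hr (0 of 7 against 0.0168%) or at 8 hr (0 of 7 against 0.0337%). At an unadjusted limma p under 0.05 there was 1 member in the mean of the time points, 0 at 0 hr, 0 at 4 hr and 1 at 8 hr. In both cases it was *Ciita*. Of the 11885 genes tested, 798, 949, 833 and 1487 were under this threshold in the same 4 comparisons. A p that misses the threshold does not show equal levels, and the 95% confidence intervals of the members' differences averaged over the times ran from -0.34 to 0.57 (log2).

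*Ciita* had the largest genotype difference of the members. At 8 hr both S513A libraries (3.97 and 3.78) were above both WT libraries (2.95 and 3.22), a log2 fold change of 0.79 with a 95% confidence interval from 0.37 to 1.20, 1.73-fold (limma unadjusted p = 0.00171, adjusted p = 0.395). At 0 hr it was -0.11 and at 4 hr 0.30, with limma adjusted p = 0.827 and 0.622. *H2-Aa* differed most at 0 hr, where both S513A libraries were above both WT libraries with a log2 fold change of 0.55 (interval -0.08 to 1.17, limma adjusted p = 0.586). At 8 hr *H2-Aa* was lower in both S513A libraries than in both WT libraries, at -0.33 (interval -0.96 to 0.30, limma adjusted p = 0.563).

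Genotypes did not overlap at 0 hr for *H2-Aa*, *H2-Ab1* and *H2-Eb1*, all higher in S513A, at 4 hr for *Ciita*, also higher, and at 8 hr for *Ciita* and *Cd74*, which were higher, and *H2-Aa* and *H2-DMa*, which were lower. With 2 libraries against 2 such separation was not rare: both S513A libraries were above both WT libraries for 30.4%, 14.3% and 27.9% of all genes at 0, 4 and 8 hr, and below them for 27.1%, 13.9% and 25.8%. None of those differences passed the test.

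**Figure D4:**
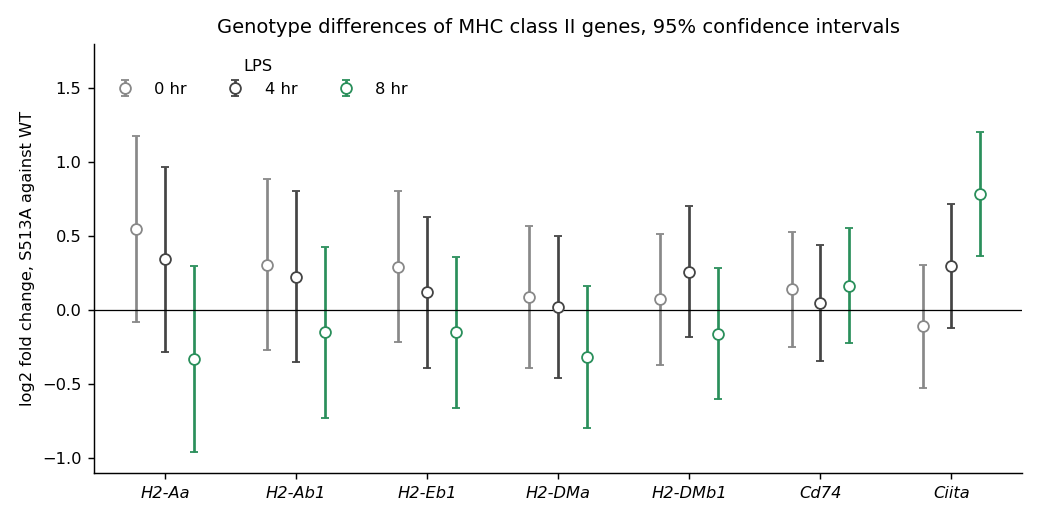
Differences between S513A and WT in log2 fold change with 95% confidence intervals (limma, 2 libraries against 2) for each member at 0, 4 and 8 hr of LPS. All points are open because none had an adjusted p under 0.05, and the interval of *Ciita* at 8 hr (0.37 to 1.20) is the only one that does not include 0.

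Whether the response to LPS itself differed between genotypes was tested with the interaction. No member passed at 4 hr (0 of 7 against 0% of all genes) or at 8 hr (0 of 7 against 0%). At an unadjusted p under 0.05, limma gave 144 of the genes tested at 4 hr and 2405 at 8 hr. The largest interactions of the members were at 8 hr: 0.90 ± 0.27 (SE) for *Ciita* (limma unadjusted p = 0.00672, adjusted p = 0.193) and -0.88 ± 0.40 (SE) for *H2-Aa* (limma unadjusted p = 0.0516, adjusted p = 0.248). For *H2-Aa* both WT libraries at 8 hr were above both at 0 hr, and both S513A libraries were below theirs. Taken singly, such separations were common: 40.8% of all genes were higher in this way in WT and 36.7% lower in S513A.

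The members were also compared between the 2 libraries of each group. In WT at 0 hr, 7 of 7 members were higher in the first library, with a median log2 difference of 0.30. At 4 hr in WT, 6 of 7 were higher in the first, with a median of 0.68 and *Ciita* as the exception. In S513A at 4 and 8 hr, 0 and 1 of 7 were higher in the first library, with medians of -0.11 and -0.35. The members went both ways in WT at 8 hr, with 5 of 7 higher in the first library and a median of 0.20, and in S513A at 0 hr, with 2 of 7 higher and a median of -0.08. Over all genes tested the same medians were between -0.02 and 0.04.

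Other genes of the pathway were counted from lists, to be read against the shares of all genes that passed (29.1% higher and 26.7% lower at 4 hr, 24.5% and 21.6% at 8 hr). Of the other class II genes, *H2-Oa* and *H2-Ob*, which encode the H2-O dimer that restrains H2-M, and *H2-Eb2* were tested and *H2-DMb2* was not. All were near the floor, with 2 to 22 reads per library. *H2-Eb2* was higher at 4 hr (log2 fold change 1.24, limma adjusted p = 0.0391) and *H2-Oa* at 8 hr (1.55, limma adjusted p = 0.00165), while *H2-Ob* passed at neither time (0.43 and -0.04).

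Of the factors that hold *Ciita* on class II promoters, at 4 hr 2 of 7 rose and 0 fell, and at 8 hr 1 of 7 rose and 0 fell. *Rfx5*, the DNA-binding subunit of RFX, rose by 0.66 at 4 hr and 1.21 at 8 hr on the log2 scale (limma adjusted p = 0.00653 and 0.000156). *Nfyb*, a subunit of NF-Y, rose by 0.70 at 4 hr (limma adjusted p = 0.000654) and was at 0.12 at 8 hr. The values of *Rfxap*, *Rfxank*, *Nfya*, *Nfyc* and *Creb1* were -0.24, -0.06, 0.12, 0.19 and 0.05 after 4 hr. After 8 hr they were -0.21, 0.02, 0.00052, 0.06 and -0.24, and none passed at either time.

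The pathway that leads from interferon gamma to *Ciita* had 5 genes up and 2 down of 9 at 4 hr, and 5 up and 1 down at 8 hr, where 55.8% and 46.1% of all genes passed in either direction. *Jak2*, the kinase bound to the receptor, rose by 3.17 and 2.63 on the log2 scale at 4 and 8 hr (limma adjusted p = 2.09e-10 and 1.18e-09). *Irf1*, which acts on the interferon-responsive *Ciita* promoter, rose by 2.71 and 2.89. The ligand-binding receptor chain *Ifngr1* fell (log2 fold changes -0.91 and -1.001, limma adjusted p = 5.18e-06 and 3.07e-06).

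Of the 7 genes tested that are known to restrain *Ciita* or interferon signaling, 6 were higher at 4 hr and 5 at 8 hr, beside 29.1% and 24.5% of all genes, and 0 were lower. *Socs1*, an inhibitor of JAK kinases, rose by 4.69 and 4.59 on the log2 scale, and *Socs3* by 3.17 and 2.81. *Prdm1*, a repressor of *Ciita* transcription, rose by 1.71 and 1.32, and *Zbtb7a* by 0.75 and 0.36 (limma adjusted p for these 4 genes of 0.00883 or less). *Il10*, also on this list, had no row.

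Of 11 genes of antigen processing, 5 were lower and 1 higher at 4 hr, and 7 were lower and 2 higher at 8 hr. Of all genes 26.7% were lower at 4 hr and 21.6% at 8 hr. *Lgmn*, the asparaginyl endopeptidase that helps to cut the invariant chain, fell, with log2 fold changes of -0.86 and -1.68 (limma adjusted p = 1.37e-05 and 9.18e-08). *Ifi30*, the thiol reductase GILT, fell as well (-0.75 and -1.17), and so did the protease *Ctsd* (-0.63 and -1.05). *Sppl2a*, the protease that removes the membrane stub of the invariant chain, rose by 1.31 and 1.61 (limma adjusted p = 4.75e-08 and 1.38e-08).

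Surface turnover and the partners of the invariant chain were measured with 3 genes each. *March1*, a ubiquitin ligase that takes class II off the surface, rose by 0.69 and 1.05 on the log2 scale at 4 and 8 hr, and its relative *March8* fell (-0.46 and -0.56). *Cd83*, which protects class II from *March1*, rose by 0.35 at 4 hr and fell by 0.30 at 8 hr (limma adjusted p = 0.0203 and 0.0452). *Cxcr4* fell (-4.54 and -3.37), *Cd44* rose by 1.59 and 0.40, and *Mif*, the ligand of the invariant chain, was at -0.26 and -0.30 and did not pass. Between genotypes, 0 genes of these 7 lists passed when the times were averaged.

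**Figure D5:**
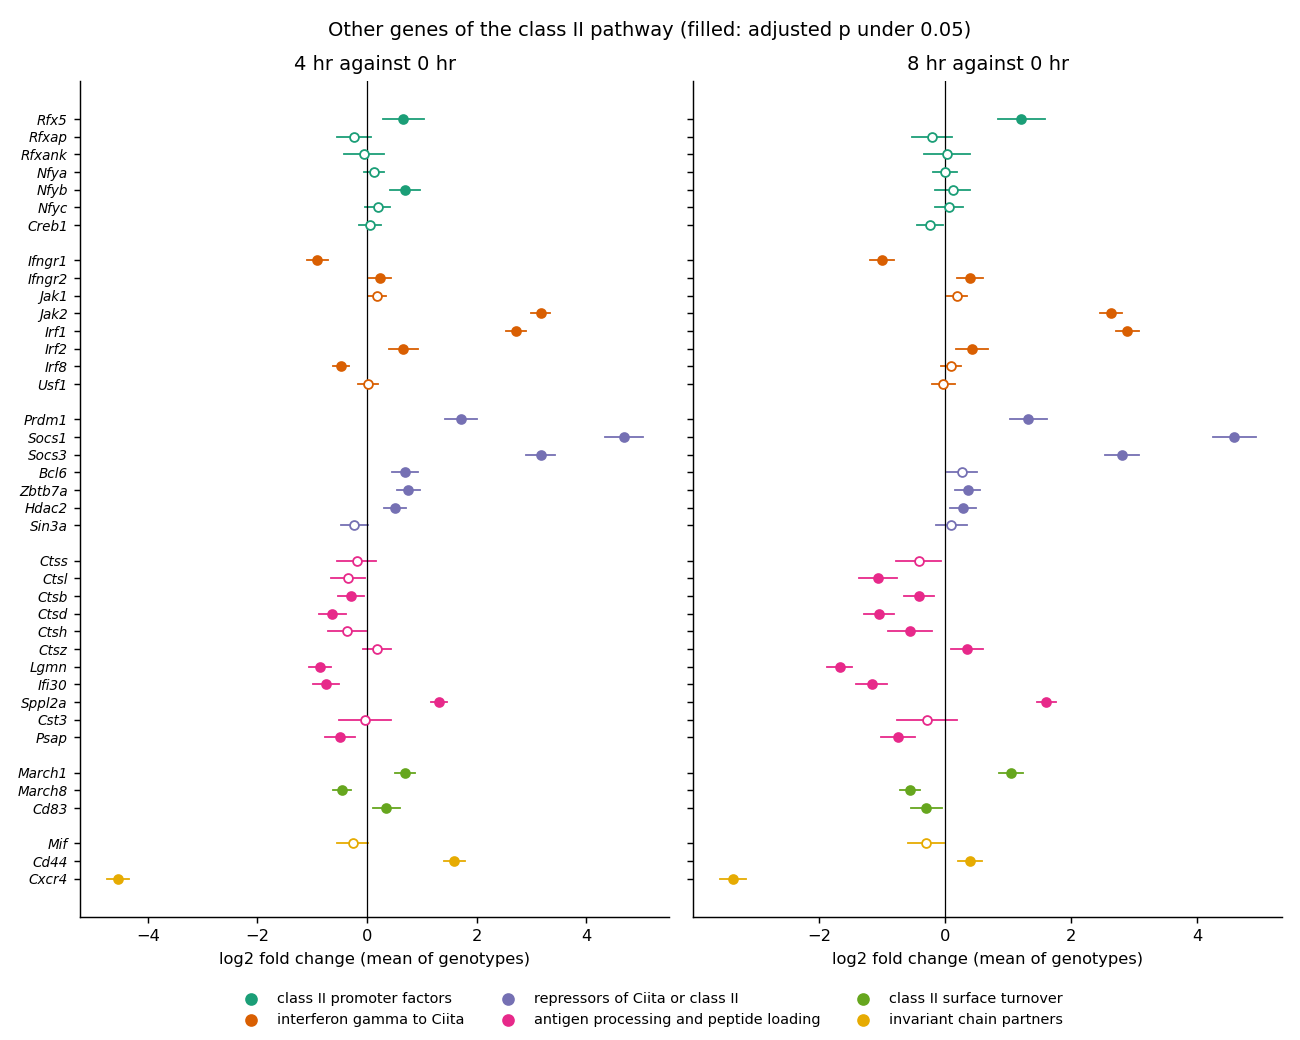
Other genes of the class II pathway, with log2 fold changes at 4 hr (left) and 8 hr (right) against 0 hr in the mean of the genotypes and 95% confidence intervals (limma), filled where the adjusted p was under 0.05. *Socs1* (4.69 and 4.59) and *Cxcr4* (-4.54 and -3.37) are farthest from 0, and *Lgmn* (-0.86 and -1.68) and *Sppl2a* (1.31 and 1.61) are on opposite sides.

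The label of the cells was checked against marker genes. Counts of markers that passed are to be read against the shares of all genes. These were 29.1% higher and 26.7% lower at 4 hr, and 24.5% and 21.6% at 8 hr. All 9 macrophage markers were tested, and their summed level was 20788 to 24739 CPM at 0 hr, 19860 to 27930 at 4 hr and 16789 to 24869 at 8 hr. *Lyz2*, a lysozyme of macrophages, had 104423 to 258386 reads per library and *Adgre1*, which encodes F4/80, 11848 to 32016. At 4 hr 2 of the 9 were higher, *Cd14* (log2 fold change 3.75) and *Adgre1* (0.87), and 3 were lower, among them *C1qa* (-0.53) and *Mertk* (-0.48). At 8 hr 4 were higher and 3 lower.

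Dendritic cells and B cells carry much class II, so their markers stand beside the members' values. The dendritic cell list summed to 683 to 881 CPM at 0 hr, 701 to 1073 at 4 hr and 684 to 1072 at 8 hr, most of it *Itgax* (5944 to 12270 reads), which macrophages also make. Of its 9 genes 6 were tested, with 3 higher and 2 lower at 4 hr and 2 higher and 2 lower at 8 hr. Among the genes called at 4 hr were *Flt3* (log2 fold change 1.48) and *Ccr7* (1.72), which were higher, and *Clec9a* (-2.29) and *Clec10a* (-2.01), which were lower. *Flt3* (2 to 18 reads), *Zbtb46* (4 to 16) and *Cd209a* (0 to 9) were near the floor, and *Xcr1* and *Siglech* had no row.

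B cell markers summed to 111 to 116 CPM at 0 hr, 51.4 to 67.5 at 4 hr and 53.3 to 58.6 at 8 hr. Of 9 genes 6 were tested, with 1 higher and 2 lower at 4 hr and 0 higher and 2 lower at 8 hr. Most of the sum was *Cd22*, with 359 to 1548 reads, which fell at both times (log2 fold changes -1.11 and -1.08). Defining markers were low and not at 0: *Cd79a* had 10 to 26 reads, *Cd79b* 10 to 24 and *Ms4a1* 10 to 31, and *Pax5*, *Ebf1* and *Fcer2a* had no row. The part of dendritic cells and B cells in the members' values was not tested.

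Lists for peritoneal macrophage types were counted too, where 55.8% of all genes passed in either direction at 4 hr and 46.1% at 8 hr. Of 8 genes of resident large macrophages, 2 were higher and 2 lower at 4 hr, and 2 higher and 5 lower at 8 hr, with a summed level of 94.9 to 163 CPM at 0 hr, 115 to 261 at 4 hr and 150 to 191 at 8 hr. *Gata6*, their defining factor with 6 to 66 reads per library, was at -0.73 at 4 hr (limma adjusted p = 0.112) and fell by 1.57 at 8 hr (limma adjusted p = 0.00462). The 2 genes higher at 4 hr were *Timd4* (log2 fold change 1.04) and *Prg4* (0.84), and *Selp* (-1.61) was among the lower. Of the 4 genes tested for monocyte-derived macrophages that bear class II, 1 was lower at each time, *Ccr2* (log2 fold changes -1.35 and -1.84). That list summed to 14.8 to 31.4 CPM at 0 hr, 9.38 to 28.7 at 4 hr and 12.4 to 17.8 at 8 hr. In it *Retnla* had 54 to 277 reads per library, against at most 57 on *Ccr2*, 49 on *Irf4* and 18 on *Mgl2*. The sum of this list was higher in both S513A libraries (25.6 to 31.4 CPM) than in both WT libraries at 0 hr. The same held at 4 hr (22.3 to 28.7 against 9.38 to 20.2), whereas at 8 hr the genotypes overlapped. In the resident list *Prg4* (376 to 1979), *Cd5l* (213 to 766) and *Timd4* (75 to 405) reached the most reads. The sum of the resident list was lower in S513A at 0 hr (94.9 to 124 CPM against 132 to 163 in WT). It was also lower at 4 hr (115 to 141 against 151 to 261) and overlapped at 8 hr. For single genes such separation was not rare. Both S513A libraries were above both WT libraries for 30.4% and 14.3% of all genes at 0 and 4 hr. They were below them for 27.1% and 13.9%. The differences of these sums between genotypes were not tested. The part of these macrophage types in the members' values, between times or between genotypes, was not tested.

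The remaining lists were small. Neutrophil markers summed to 660 to 745 CPM at 0 hr, 445 to 689 at 4 hr and 362 to 575 at 8 hr, with 3 of 7 genes tested and 1 higher and 1 lower at 4 hr and 2 higher and 1 lower at 8 hr. Most of the sum was *Mmp8* (3247 to 10407 reads), which was lower at 4 hr (log2 fold change -0.45). *Camp* (0 to 36 reads), near the floor, was higher at 4 hr (4.31), and *S100a9*, *Retnlg*, *Ly6g* and *Ngp* had no row. T cells had 1 of 6 genes tested, *Lck*, which was higher at 4 hr, and a summed level of 1.11 to 2.64 CPM in all libraries. Eosinophils had 1 of 6, *Siglecf*, which fell at both times, and summed to 3.84 to 18.8 CPM. No gene of any marker list passed between genotypes in the mean of the time points.

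Genes with the most similar pattern were found by the root mean square difference of log2 CPM, centred on each gene's mean over the 12 libraries. Nearest to the mean profile of the 7 members were *Tradd* (0.0816), *Pgrmc1* (0.0841), *Emc3* (0.0855), *Slbp* (0.0880) and *Uqcrc1* (0.0928). The members themselves lay 0.0928 (*H2-DMb1*) to 0.549 (*Ciita*) from that profile, and *Tradd*, *Pgrmc1*, *Emc3* and *Slbp* were nearer to it than any member. The profile averages members that rose with members that fell, and the distance is not scaled by how much a gene moves. Genes that move little can therefore lie near it, and nearness to it does not show a pattern shared with the class II genes. Nearest to *Ciita* alone were *Apba1* (0.221), *Hk3* (0.228), *Sema4b* (0.233), *Lpin2* (0.237) and *Jade1* (0.251). The class II member nearest to *Ciita* was *H2-DMb1* at 0.572, which is also the member of narrowest range, and *H2-Aa* was the farthest at 0.763.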

How the data were processed

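RNA from PECs (12 libraries, 6 groups of 2) was sequenced by the authors, mapped on mm10 with HISAT2 as paired-end, unstranded reads and counted with featureCounts 1.6.3. The deposited values are log2 CPM, which the authors made from reads plus 0.5 over a normalized library size. The program used for that step is not given in the sources used here. Undoing that formula gave whole reads throughout, none off by more than 0.00103 read. No deposited column was left out.

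Tests used limma 3.58.1 (R 4.3.3) on the log2 values as deposited. The model had a mean per group, 6 residual degrees of freedom and a prior that follows the mean level, with two-sided p values adjusted by Benjamini-Hochberg over the 11885 genes that reached 1 CPM in 2 or more libraries, and a threshold of 0.05. The fit was tested on simulated data. Library depth was 9525979 to 12439960 reads. Within-library ratios were compared with exact permutation tests (scipy 1.17.1). Positions, exon lengths and transcript words are from the GENCODE vM21 annotation of GRCm38, and promoter windows from RefSeq. Tables and plots were made with Python 3.11.15, pandas 2.3.3 and matplotlib 3.10.9.

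The members, the gene lists and the tests were chosen with earlier results of these data known. Named from the lists are up to 4 genes each with the largest 4 hr change, all genes of the first 2 lists, and the 5 genes nearest in pattern. *Brd2*, *Dexi*, *Zc3h12a*, *Lyz2*, *Adgre1*, *Itgax* and the reads of the cell type markers were added after their values were seen. Some genes counted in the lists are not reported here one by one.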

Additional observations from a re-analysis of the deposited data

How the results depend on the processing

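The counts of members that passed changed by more than 1.5 times under these settings. Quantile normalization gave 2 instead of 4 for 4 hr against 0 hr in the mean of the genotypes, both lower, and 1 instead of 2 for 8 hr against 4 hr, which was also 1 with a prior without a trend and 1 with only the groups compared. With only the groups compared, 4 hr against 0 hr gave 0 instead of 3 in WT and 3 instead of 1 in S513A, 8 hr against 0 hr in WT gave 3 instead of 0, and S513A against WT at 0 hr gave 1 instead of 0 (*H2-Aa*, 0.55). Median-ratio scaling, quantile normalization and voom weights each gave 1 instead of 0 for 8 hr against 0 hr in WT. The cause was not tested. Replicate numbers were not taken to pair the samples: the deviations of same-numbered libraries correlated between -0.36 and 0.15 within WT and between -0.12 and 0.76 within S513A, and the labels name no shared source. The deposited column names are numbered in sequence through the times of each replicate of a genotype, so a shared source is possible and not known. With a replicate block 8 hr against 0 hr in WT gave 1. With a replicate block within genotype it gave 2, 8 hr against 0 hr and 8 hr against 4 hr in the mean of the genotypes gave 4 each, and 4 hr against 0 hr in S513A gave 3.

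Signs turned for small differences (log2). *H2-DMb1* at 4 hr in the mean of the genotypes was -0.0031 with median-ratio scaling and -0.10 with quantile normalization, and *H2-Eb1* at 8 hr in WT was -0.032 and -0.17. Quantile normalization also gave -0.070 for *Cd74* at 8 hr in the mean of the genotypes, -0.17 for *Cd74* at 8 hr in WT, -0.10 for *H2-Aa* and -0.0080 for *H2-DMb1* at 4 hr in S513A, -0.027 for *H2-Ab1* at 8 hr in S513A and -0.030 for *Cd74* between genotypes at 4 hr.

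Leaving out 1 library at a time gave 4 to 6 members for 4 hr against 0 hr and 1 to 3 for 8 hr against 0 hr in the mean of the genotypes, 1 to 4 for 8 hr against 4 hr, 1 to 5 at 4 hr and 0 to 2 at 8 hr in WT, 0 to 3 at 4 hr and 2 to 4 at 8 hr in S513A, and 0 to 0 between genotypes and for the interaction. An arm left with 1 library was taken to vary like the other groups. These values crossed 0. Against 0 hr: *H2-DMb1* at 4 hr from -0.12 to 0.15 in the mean of the genotypes and from -0.35 to 0.19 in WT, *H2-Aa* at 4 hr from -0.068 to 0.94 in WT and from -0.0051 to 0.47 in S513A, and at 8 hr in WT *H2-Eb1* from -0.13 to 0.15, *H2-DMb1* from -0.23 to 0.21, *Cd74* from -0.035 to 0.42 and *Ciita* from -0.19 to 0.079, and in S513A *H2-Ab1* from -0.055 to 0.46. *H2-DMa* from 4 to 8 hr ran from -0.21 to 0.13. Between genotypes averaged over the times: *H2-Ab1* from -0.0084 to 0.26, *H2-Eb1* from -0.042 to 0.22, *H2-DMa* from -0.18 to 0.046 and *H2-DMb1* from -0.032 to 0.15. At 0 hr: *H2-DMa* from -0.058 to 0.24, *H2-DMb1* from -0.15 to 0.29 and *Cd74* from -0.088 to 0.37. At 4 hr: *H2-Aa* from -0.16 to 0.85, *H2-Ab1* from -0.18 to 0.63, *H2-Eb1* from -0.27 to 0.52, *H2-DMa* from -0.32 to 0.36, *H2-DMb1* from -0.0096 to 0.53 and *Cd74* from -0.17 to 0.26. At 8 hr: *H2-Ab1* from -0.41 to 0.11, *H2-Eb1* from -0.32 to 0.025 and *H2-DMb1* from -0.36 to 0.041. In the interaction at 4 hr: *H2-Aa* from -0.71 to 0.30, *H2-Ab1* from -0.49 to 0.33, *H2-Eb1* from -0.57 to 0.22, *H2-DMa* from -0.41 to 0.275, *H2-DMb1* from -0.084 to 0.46 and *Cd74* from -0.32 to 0.14, and at 8 hr *Cd74* from -0.20 to 0.25.

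Of the other member values, 831 under other settings and 993 with 1 library left out kept their direction and side of the threshold. The 12 libraries and the 51 to 181 reads on *Ciita* limit precision.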
